A study of Mus musculus with 24 samples.

Results

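The results below describe 9 mouse genes of fatty acid uptake and mitochondrial fatty acid oxidation: Fabp3, Cd36, Cpt1a, Cpt2, Acadvl, Acadm, Acadl, Hadha and Hadhb. They were taken by gene name from the deposited gene expression table, in which each name occurred once among 14737 protein-coding gene records. All 9 had at least 1 FPKM (fragments scaled to transcript length and to library size) in at least 3 of the 24 libraries and entered the tests, although Cd36 reached 1 FPKM in 12 libraries only and Cpt1a in 19. The libraries came from mouse embryonic stem cells of strain 129/Sv, undifferentiated at d0 and after aggregation in hanging drops into embryoid bodies at d3, d6 and d10, a protocol aimed at cardiac differentiation. On each day, 3 WT libraries stood against 3 libraries of the genotype Carma3xpA/+, so that there were 8 groups. In the usual notation 3xpA stands for inserted polyadenylation signals, which end a transcript early, and /+ for a heterozygous locus; Carma is a noncoding gene, and its own level, which would check the genotype labels, was not analysed here. The labels name no drug or other agent that differed between the genotypes. Undifferentiated cells of both genotypes were kept on MEF, a layer of mouse fibroblasts, with the cytokine LIF, and the labels do not say how many Carma3xpA/+ clones were used. The series text speaks of biological replicates without saying whether they were separate cultures, so a p-value here reflects only how far these libraries spread.

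Fatty acids from the medium enter a cell partly through the membrane protein CD36 and are carried in the cytosol by fatty acid binding proteins, of which FABP3 is the heart and muscle form. Once activated to acyl-CoA, long chains cross into mitochondria as carnitine esters: CPT1 makes the ester at the outer membrane, which is the regulated step of the pathway, and CPT2 turns it back into acyl-CoA inside. Each round of beta-oxidation then starts with an acyl-CoA dehydrogenase chosen by chain length, and for long chains ends with the trifunctional protein, made of HADHA and HADHB. The adult heart draws most of its energy from this route, whereas early cardiac cells rely more on glycolysis.

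Promoter windows of RefSeq (build GRCm38.p6, from 250 bases before to 50 after the annotated start) were matched for all 9 genes, and 4 are printed because the results turn on these genes. The window of Fabp3 (chr4:130308488-130308787, plus strand), the most abundant member, is shown with the letters TATTTAA in capitals, 29 bases before the RefSeq start. The deposited Fabp3 record begins further upstream, at chr4:130308595, so these letters lie inside it. For Cpt1a (chr19:3323051-3323350, plus strand) the capitals mark TGACCT, the reverse complement of AGGTCA, the core of many nuclear receptor elements. Acadvl (chr11:70015379-70015678, minus strand) has AGGTCA itself in capitals. In the window of Hadhb (chr5:30155003-30155302, plus strand) the capitals mark the 85 bases that lie between the deposited ends of Hadha and Hadhb, which are transcribed away from each other.
Fabp3: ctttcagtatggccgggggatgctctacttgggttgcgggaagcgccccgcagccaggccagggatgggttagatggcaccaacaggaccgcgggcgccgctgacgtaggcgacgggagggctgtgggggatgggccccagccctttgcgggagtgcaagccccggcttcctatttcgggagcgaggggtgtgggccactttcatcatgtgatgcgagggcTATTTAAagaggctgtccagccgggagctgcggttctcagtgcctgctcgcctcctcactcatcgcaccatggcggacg
Cpt1a: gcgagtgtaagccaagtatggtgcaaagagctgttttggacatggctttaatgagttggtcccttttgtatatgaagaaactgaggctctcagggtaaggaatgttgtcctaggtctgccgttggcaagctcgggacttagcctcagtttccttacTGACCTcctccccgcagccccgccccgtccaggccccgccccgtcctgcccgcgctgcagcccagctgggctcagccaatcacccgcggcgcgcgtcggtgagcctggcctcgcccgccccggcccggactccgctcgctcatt
Acadvl: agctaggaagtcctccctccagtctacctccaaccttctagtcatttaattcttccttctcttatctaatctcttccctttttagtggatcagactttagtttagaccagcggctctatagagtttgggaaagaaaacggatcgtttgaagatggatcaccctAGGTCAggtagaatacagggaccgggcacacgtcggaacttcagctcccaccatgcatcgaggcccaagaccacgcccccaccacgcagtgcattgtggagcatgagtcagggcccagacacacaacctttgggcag
Hadhb: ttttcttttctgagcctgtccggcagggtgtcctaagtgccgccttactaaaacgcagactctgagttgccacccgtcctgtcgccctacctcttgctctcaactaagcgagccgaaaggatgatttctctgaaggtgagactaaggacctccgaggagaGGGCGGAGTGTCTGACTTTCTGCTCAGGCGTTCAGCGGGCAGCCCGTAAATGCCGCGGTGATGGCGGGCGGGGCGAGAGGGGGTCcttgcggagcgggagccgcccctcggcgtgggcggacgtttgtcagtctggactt

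The motifs were searched on both strands and may overlap. AGGTCA was found in the windows of 4 members (Cd36, Cpt1a, Acadvl and Acadm) and in 16.3% of all 32851 windows of the same length. A direct repeat of it with any base between the copies, the form bound by the fatty acid sensing PPAR receptors, was in none of the 9 members and in 0.0396% of all windows, and the longer TNAAGGTCA was likewise in none and in 1.28%. TATTTAA occurred in 4.51% of all windows and, among the members, in Fabp3. The GC box GGGCGG was in 6 members (Cd36, Cpt1a, Cpt2, Acadl, Hadha and Hadhb) and in 35.7% of all windows. The members' windows held from 3 CpG in Cd36 to 34 in Acadl, against a median of 7 over all windows.

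The 24 libraries had between 10667 and 11921 genes at 1 FPKM or more, and their depth is unknown because only FPKM were deposited. Across genes, replicate pairs had Pearson correlations of log2 values from 0.9541 to 0.9947. The library labelled Carma3xpA/+ d0 replicate 1 stood apart, with the 2 lowest correlations (0.9541 and 0.9586), and the main results on the d0 cells of this genotype are given with and without it; for the related lists and chromosome 11 this comparison was chosen after seeing the data. The next lowest correlations were within Carma3xpA/+ d10, between replicates 1 and 2 (0.9712) and between replicates 1 and 3 (0.9846). No d10 library was set apart in the same way. The summed level of 6 pluripotency markers was 988.3 to 1048 FPKM in WT at d0 and 75.25 to 100.2 at d10, and that of 8 cardiomyocyte markers was 643.2 to 842 in WT and 556.7 to 668.9 in Carma3xpA/+ at d6. At d10 the cardiomyocyte sum was 451.5 to 645.9 in WT and 1116 to 1646 in Carma3xpA/+, with no overlap. Markers of other cells were measured too: the 6 genes of visceral endoderm and yolk sac summed to 385.4 to 741.9 FPKM in WT and 235.7 to 1142 in Carma3xpA/+ at d10. In such mixed samples, fewer cells of a type and less RNA per cell cannot be told apart.

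**Figure D1:**
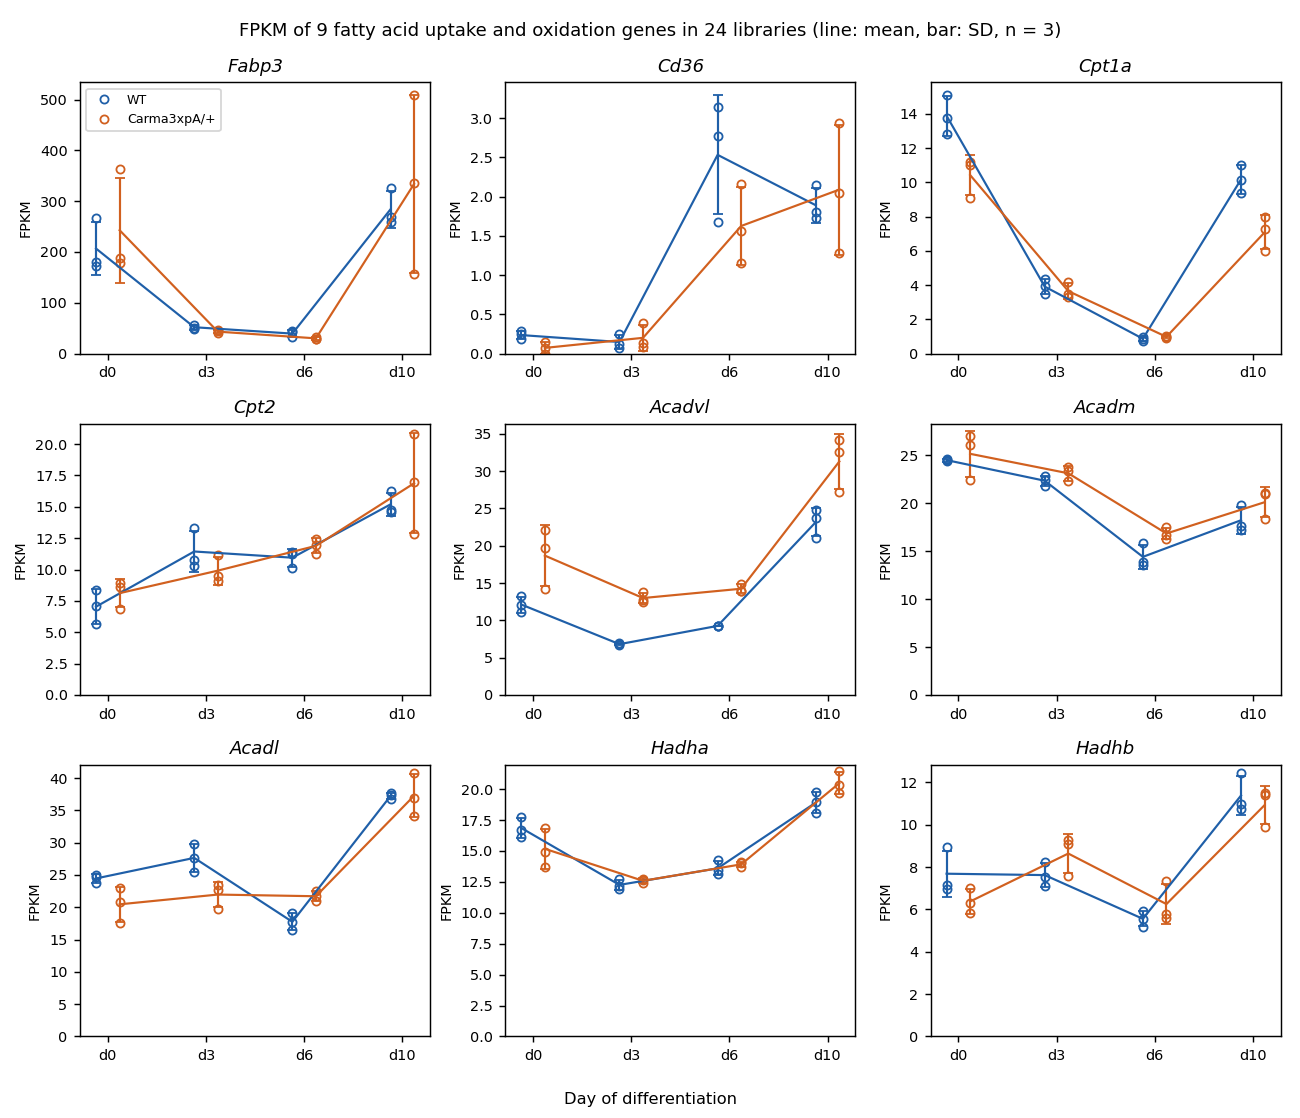
FPKM of each of the 9 genes (vertical axes, each from 0) by day of differentiation in WT (blue) and Carma3xpA/+ (orange). Open circles are libraries, lines join group means and bars are SD (n = 3). Fabp3 and Cpt1a are lowest at d6, and the Acadvl circles of the genotypes are apart on every day.

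Fabp3, which carries fatty acids through the cytosol, was the most abundant member and followed a deep trough. In WT it had 172, 180.7 and 267.4 FPKM at d0, 48.48, 49.88 and 57.04 at d3, 42, 43.55 and 32.12 at d6, and 258.1, 269 and 325 at d10. The d0 and d10 libraries were all far above those of d3 and d6, and the d3 and d6 libraries did not overlap either. Its mean fell 3.99-fold from d0 to d3 (log2 difference of log2(FPKM + 1), -1.95 ± 0.30 SE, adjusted p = 1.513e-05) and rose 7.24-fold from d6 to d10 (2.83 ± 0.30, adjusted p = 1.699e-07). All such p-values are from limma with Benjamini-Hochberg adjustment over 13373 genes. The step from d3 to d6 missed the threshold of 0.05 (-0.40 ± 0.30, adjusted p = 0.2607), though a fit of the compared groups alone passed it (adjusted p = 0.02196). The levels at d10 and d0 overlapped (0.48 ± 0.30, adjusted p = 0.1609; adjusted p = 0.03321 with the compared groups alone).

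The Carma3xpA/+ series had the same shape with a wider spread at both ends. Its Fabp3 values were 362.5, 188.1 and 177.9 FPKM at d0, 39.9, 45.82 and 43.64 at d3, 27.75, 33.21 and 28.64 at d6, and 157, 508.9 and 335.9 at d10. The fall from d0 to d3 was 5.63-fold (-2.39 ± 0.30, adjusted p = 1.685e-06), and without the library that stood apart, which holds the highest d0 value, it was -2.06 (adjusted p = 1.029e-05). The rise from d6 to d10 was 11.2-fold (3.29 ± 0.30, adjusted p = 2.8e-08). Between genotypes Fabp3 passed the test on no day (0.18, -0.26, -0.37 and 0.08 at d0, d3, d6 and d10, each ± 0.30; adjusted p from 0.5644 to 0.8999). The estimates at d0 and d10 depend on 1 library each: without Carma3xpA/+ replicate 1 the d0 value was -0.15, and without replicate 2 the d10 value was -0.30.

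The levels of other cells' markers differed between the same d10 libraries. In Carma3xpA/+ replicates 1, 2 and 3, with Fabp3 at 157, 508.9 and 335.9 FPKM, the visceral endoderm and yolk sac markers summed to 235.7, 1142 and 681.2 FPKM and the cardiomyocyte markers to 1532, 1116 and 1646. The replicate with the most Fabp3 thus had the highest endoderm sum and the lowest cardiomyocyte sum of its group. In WT the endoderm sums were 385.4, 456.5 and 741.9 beside Fabp3 at 258.1, 269 and 325, again in the same order, and the cardiomyocyte sums were 645.9, 610.9 and 451.5. Other lists shared the Fabp3 order at d10. In WT these were the fibroblast (471, 499.7 and 628.2) and macrophage sums (129.6, 135.8 and 137.8). In Carma3xpA/+ they were the erythroid (91.21, 179.4 and 114.5) and smooth muscle sums (1635, 1739 and 1689). The adipocyte gene Cidec, at low levels, shared it in both genotypes. With 3 libraries a group these lists cannot be told apart by order. At d6, where the Carma3xpA/+ endoderm sum was 452.5 to 609, Fabp3 lay between 27.75 and 33.21. The part of any of these cell types in the Fabp3 level was not tested. Fabp3 overlaps Zcchc17 on the opposite strand by 81 bases and Gm10570 by 80; the kit kept strand, but strand-aware counting is not given in the sources used here.

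Cd36, the fatty acid translocase of the cell surface, was nearly silent until d3 and stayed low. In WT it had 0.281, 0.243 and 0.182 FPKM at d0, 0.0740, 0.116 and 0.251 at d3, 3.14, 2.78 and 1.68 at d6, and 1.80, 2.15 and 1.73 at d10. In Carma3xpA/+ the values were 0 (as listed), 0.0721 and 0.143 at d0, 0.0776, 0.386 and 0.137 at d3, 1.56, 1.16 and 2.16 at d6, and 2.94, 1.29 and 2.05 at d10. Every d6 and d10 library of both genotypes lay above every d0 and d3 library. The step from d3 to d6 passed the test in WT (1.60 ± 0.18, adjusted p = 1.269e-07) and in Carma3xpA/+ (1.12 ± 0.18, adjusted p = 1.228e-05), and the difference between these steps did not (-0.48 ± 0.25, adjusted p = 0.4269). With a pseudocount of 1 these log2 values understate the change of so low a gene. Endothelial cells and macrophages are known to carry CD36, and their markers moved differently: the endothelial sum was 181 to 238.1 FPKM in WT at d6 and 21.42 to 27.45 at d10, the macrophage sum 4.713 to 7.845 at d6 and 129.6 to 137.8 at d10. In Carma3xpA/+ the endothelial sum was 170.3 to 190.5 and 27.04 to 46.04, and the macrophage sum 8.752 to 9.442 and 39.75 to 60.28, on these days. Of the 6 macrophage genes, only C1qa was listed at 0 in every WT d6 library, and only C1qa and C1qb in every Carma3xpA/+ d6 library. Cardiomyocyte markers summed to 9.978 to 21.29 FPKM in WT at d3, 643.2 to 842 at d6 and 451.5 to 645.9 at d10. In Carma3xpA/+ their sums on these days were 16.17 to 18, 556.7 to 668.9 and 1116 to 1646. The sums of the erythroid and of the visceral endoderm and yolk sac markers were also higher at d6 than at d3 in both genotypes. Of the adipocyte markers only Cidec was measured, at 0 to 1.33 FPKM. The part of these cells in the Cd36 level was not tested.

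Cd36 did not pass from d6 to d10 (-0.27 ± 0.18 in WT, adjusted p = 0.2149, and 0.22 ± 0.18 in Carma3xpA/+, adjusted p = 0.3071). Nor did it pass between genotypes on any day (adjusted p from 0.1754 to 0.9458). WT d6 replicate 3 decides 2 of these calls: without it Cd36 was lower at d10 than at d6 in WT (-0.46, adjusted p = 0.0447) and lower in Carma3xpA/+ at d6 (-0.61, adjusted p = 0.04927).

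Cpt1a, whose product is the liver-type carnitine palmitoyltransferase at the gate of the pathway, changed at every step in both genotypes. In WT it had 13.74, 12.81 and 15.13 FPKM at d0, 4.35, 3.93 and 3.46 at d3, 0.740, 0.986 and 0.868 at d6, and 11.03, 10.12 and 9.38 at d10. In Carma3xpA/+ it had 11.2, 11.02 and 9.07 at d0, 3.33, 4.16 and 3.46 at d3, 0.954, 1.05 and 0.921 at d6, and 7.28, 6.01 and 7.96 at d10. Within each genotype the 4 days did not overlap, and the order was d0, d10, d3 and d6 from highest to lowest. The WT mean fell 3.55-fold from d0 to d3 (-1.60 ± 0.11, adjusted p = 4.02e-10) and 4.53-fold from d3 to d6 (-1.40 ± 0.11, adjusted p = 1.184e-09), then rose 11.8-fold to d10 (2.58 ± 0.11, adjusted p = 1.657e-13). In Carma3xpA/+ the falls were 2.86-fold (-1.30 ± 0.11, adjusted p = 1.121e-08) and 3.74-fold (-1.23 ± 0.11, adjusted p = 7.013e-09) and the rise 7.26-fold (2.03 ± 0.11, adjusted p = 1.387e-11). The first fall was -1.25 without the d0 library that stood apart (adjusted p = 5.689e-08). At d10 WT had not come back to d0 (-0.41 ± 0.11, adjusted p = 0.002325).

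The muscle-type enzyme gene Cpt1b, a related gene outside the 9, was highest when Cpt1a was lowest. In WT its mean was 2.05 ± 0.37 FPKM (SD, n = 3) at d3, 6.78 ± 1.61 at d6 and 4.29 ± 0.072 at d10. The step to d6 passed the test (1.34 ± 0.22, adjusted p = 3.322e-05) and the step from d6 to d10 did not (-0.54, adjusted p = 0.05522). On the FPKM scale, which is per length, Cpt1b was thus above Cpt1a in WT at d6 and below it at the other 3 days.

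Cpt2, which releases acyl-CoA from carnitine inside the mitochondrion, did not share the d6 trough. In WT it had 7.07, 5.65 and 8.39 FPKM at d0, 13.27, 10.3 and 10.74 at d3, 11.27, 11.43 and 10.13 at d6, and 14.57, 14.76 and 16.25 at d10. In Carma3xpA/+ it had 6.85, 8.6 and 8.89 at d0, 9.06, 9.51 and 11.16 at d3, 12.43, 11.26 and 11.97 at d6, and 12.85, 20.81 and 16.96 at d10. The d0 libraries were the lowest and the d10 libraries the highest in each genotype, while the WT d3 and d6 libraries overlapped. WT Cpt2 rose from d0 to d3 (1.63-fold; 0.64 ± 0.15, adjusted p = 0.0009683) and from d6 to d10 (1.39-fold; 0.44 ± 0.15, adjusted p = 0.01764). In Carma3xpA/+ the step from d6 to d10 passed (0.45 ± 0.15, adjusted p = 0.01364) and the step from d0 to d3 did not (0.26 ± 0.15, adjusted p = 0.1424; 0.16 and adjusted p = 0.4156 without the d0 library that stood apart). The d10 calls rest on few libraries: the WT call was lost without WT d10 replicate 3 (adjusted p = 0.06376) or WT d6 replicate 3 (adjusted p = 0.06708), and the Carma3xpA/+ value was 0.29 without d10 replicate 2 (adjusted p = 0.111).

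**Figure D2:**
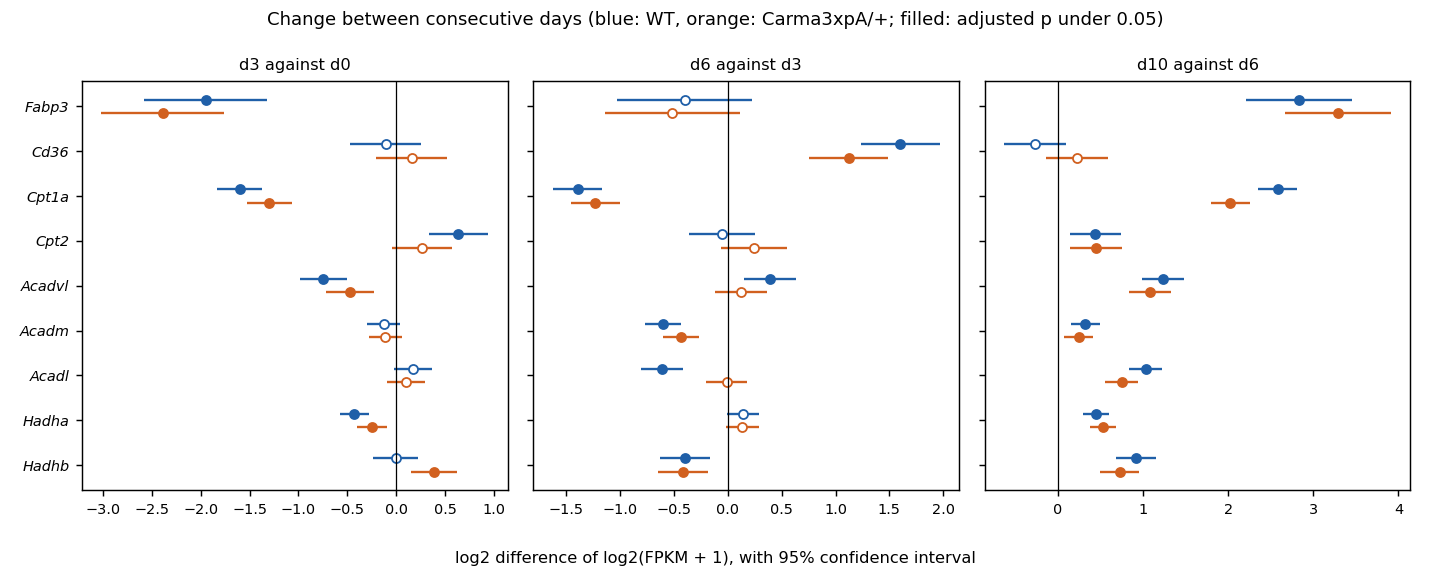
Log2 difference of log2(FPKM + 1) between consecutive days for each gene, with its 95% confidence interval, in WT (blue) and Carma3xpA/+ (orange); filled points had an adjusted p under 0.05. In the d10 against d6 panel all points except those of Cd36 are filled and lie right of 0.

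The acyl-CoA dehydrogenases differed in their course. Acadvl, which acts on very long chains at the inner membrane, had 11.08, 12.06 and 13.22 FPKM in WT at d0, 6.87, 6.64 and 6.92 at d3, 9.26, 9.23 and 9.29 at d6, and 23.69, 21.04 and 24.75 at d10. In Carma3xpA/+ it had 14.23, 19.66 and 22.14 at d0, 12.75, 12.48 and 13.74 at d3, 13.91, 13.89 and 14.91 at d6, and 27.2, 34.16 and 32.5 at d10. The d3 libraries were the lowest and the d10 libraries the highest in both genotypes. WT Acadvl fell from d0 to d3 (1.78-fold; -0.75 ± 0.12, adjusted p = 1.804e-05), rose to d6 (1.36-fold; 0.39 ± 0.12, adjusted p = 0.006389) and rose to d10 (2.50-fold; 1.23 ± 0.12, adjusted p = 3.169e-08). The rise to d6 was lost under quantile normalization (0.21, adjusted p = 0.06639). In Carma3xpA/+ it fell from d0 to d3 (1.44-fold; -0.47 ± 0.12, adjusted p = 0.002036) and rose from d6 to d10 (2.20-fold; 1.08 ± 0.12, adjusted p = 3.075e-07). Without the d0 library that stood apart the fall was -0.65 (adjusted p = 1.055e-05), and with the compared groups alone it missed the threshold (adjusted p = 0.06297).

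Acadm, the medium-chain enzyme, did not pass from d0 to d3 in either genotype (adjusted p = 0.1945 and 0.2604) and was lowest at d6. WT libraries had 24.48, 24.36 and 24.65 FPKM at d0, 22.4, 22.83 and 21.81 at d3, 15.81, 13.84 and 13.57 at d6, and 17.22, 17.64 and 19.82 at d10. Carma3xpA/+ libraries had 22.42, 26.98 and 26.06 at d0, 22.27, 23.77 and 23.33 at d3, 16.73, 16.3 and 17.5 at d6, and 18.31, 21.08 and 20.93 at d10. The d6 libraries were the lowest of each genotype. Acadm fell from d3 to d6 in WT (1.55-fold; -0.60 ± 0.081, adjusted p = 2.22e-06) and in Carma3xpA/+ (1.37-fold; -0.44 ± 0.081, adjusted p = 9.718e-05). The rise to d10 was small in WT (1.27-fold; 0.32 ± 0.081, adjusted p = 0.002974) and in Carma3xpA/+ (1.19-fold; 0.24 ± 0.081, adjusted p = 0.01666). The latter call was lost without d10 replicate 2, d10 replicate 3 or d6 replicate 2 (adjusted p from 0.05706 to 0.06712) and with the compared groups alone (adjusted p = 0.05351). At d10 WT Acadm was still below d0 (-0.41 ± 0.081, adjusted p = 0.000147), while Acadl and Acadvl were above it (adjusted p = 1.175e-05 and 1.114e-06).

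Acadl, the long-chain enzyme, had 24.66, 23.75 and 24.96 FPKM in WT at d0, 29.83, 25.52 and 27.57 at d3, 19.06, 17.75 and 16.42 at d6, and 37.66, 37.3 and 36.71 at d10. In Carma3xpA/+ it had 17.63, 22.94 and 20.79 at d0, 19.71, 22.73 and 23.45 at d3, 22.46, 21.73 and 20.92 at d6, and 34.06, 36.96 and 40.76 at d10. The d6 trough of WT was not seen in Carma3xpA/+, whose d0, d3 and d6 libraries overlapped. WT Acadl fell from d3 to d6 (1.56-fold; -0.61 ± 0.093, adjusted p = 1.049e-05), while in Carma3xpA/+ the step was -0.01 ± 0.093 (adjusted p = 0.9116; 95% interval -0.21 to 0.18). From d6 to d10 it rose 2.10-fold in WT (1.03 ± 0.093, adjusted p = 1.606e-08) and 1.72-fold in Carma3xpA/+ (0.75 ± 0.093, adjusted p = 1.843e-06).

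Hadha and Hadhb encode the subunits of one enzyme complex and share the short stretch between their starts, and they were called at different steps before d6. Hadha had 16.68, 17.73 and 16.16 FPKM in WT at d0, 11.91, 12.16 and 12.7 at d3, 13.45, 14.23 and 13.11 at d6, and 19.76, 18.93 and 18.05 at d10. Hadhb had 6.97, 8.93 and 7.15 at d0, 7.51, 7.11 and 8.23 at d3, 5.19, 5.91 and 5.57 at d6, and 12.44, 10.97 and 10.72 at d10. WT Hadha was lowest at d3 and WT Hadhb at d6, with no overlap with the other days in either case. Hadha fell from d0 to d3 in WT (1.38-fold; -0.43 ± 0.072, adjusted p = 4.325e-05), where Hadhb did not pass (-0.01 ± 0.11, adjusted p = 0.9783). Hadhb fell from d3 to d6 (1.37-fold; -0.40 ± 0.11, adjusted p = 0.004668), where Hadha did not pass (0.14 ± 0.072, adjusted p = 0.1067). Whether the subunits' steps differ from each other was not tested.

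In Carma3xpA/+ Hadha had 16.88, 13.71 and 14.93 FPKM at d0, 12.63, 12.75 and 12.38 at d3, 13.68, 14.07 and 14 at d6, and 19.69, 21.45 and 20.31 at d10. Hadhb had 6.32, 5.81 and 6.99 at d0, 9.27, 9.07 and 7.57 at d3, 5.62, 7.36 and 5.78 at d6, and 11.38, 9.90 and 11.49 at d10. Again Hadha was lowest at d3, when Hadhb was above its d0 and d6 libraries. From d0 to d3 Hadha fell (-0.25 ± 0.072, adjusted p = 0.007252; -0.17 and adjusted p = 0.03377 without the d0 library that stood apart) and Hadhb rose (0.39 ± 0.11, adjusted p = 0.006762; 0.38 and adjusted p = 0.01371 without it). With the compared groups alone neither passed (adjusted p = 0.1158 and 0.05309). From d6 to d10 both rose in both genotypes, Hadha by 0.45 ± 0.072 in WT (adjusted p = 4.027e-05) and 0.53 ± 0.072 in Carma3xpA/+ (adjusted p = 6.224e-06), and Hadhb by 0.92 ± 0.11 (adjusted p = 1.191e-06) and 0.72 ± 0.11 (adjusted p = 2.293e-05). Garem2 overlaps the end of Hadha on the opposite strand by 75 bases.

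Read across the 9 genes, the steps had different signs. From d0 to d3 in WT 1 gene rose (Cpt2) and 4 fell (Fabp3, Cpt1a, Acadvl, Hadha), where 55.5% of all genes tested were called, 27.7% higher and 27.7% lower. In Carma3xpA/+ 1 rose (Hadhb) and the same 4 fell, beside 52.4% of all genes (27.5% higher and 24.9% lower), and without the library that stood apart Acadm fell as well (-0.19, adjusted p = 0.04544), beside 53.0% of all genes called. From d3 to d6 in WT 2 rose (Cd36, Acadvl) and 4 fell (Cpt1a, Acadm, Acadl, Hadhb), with 60.1% of all genes called (35.4% higher and 24.7% lower). The same step in Carma3xpA/+ had 1 rise (Cd36) and 3 falls (Cpt1a, Acadm, Hadhb), with 63.3% called (37.8% higher and 25.5% lower). In each of these steps more members fell than rose, and the 4 of 9 called in Carma3xpA/+ from d3 to d6 lay below the all-gene share. With only 9 genes, neither the totals of 4 to 6 nor the counts by direction are read as differing from the shares over all genes. At d0, when the cells were kept on fibroblasts, fibroblast markers summed to 17.64 to 23.89 FPKM in WT and 15.21 to 29.63 in Carma3xpA/+. At d3 they summed to 3.923 to 4.548 and 6.103 to 7.842. Smooth muscle markers summed to 116.5 to 129.4 FPKM at d0 and 32.33 to 33.72 at d3 in WT. In Carma3xpA/+ they summed to 48.12 to 102.9 and 26.52 to 31.56. The part of these cells in the falls from d0 to d3 was not tested.

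From d6 to d10 8 of 9 genes rose in WT and 8 of 9 in Carma3xpA/+, with Cd36 the exception in both and no fall. Over all genes 48.5% were called in WT, 24.6% as higher and 23.9% as lower, and 55.3% in Carma3xpA/+, 26.2% as higher and 29.1% as lower. The members' median log2 difference was 0.92 in WT and 0.72 in Carma3xpA/+, against -0.01 and -0.02 over all genes. The sizes ranged in WT from 0.32 for Acadm to 2.83 for Fabp3. Markers of several cell types moved over the same interval. Fibroblast markers rose in 5 of 6 cases in each genotype, their sum being 56.04 to 161 FPKM at d6 and 471 to 628.2 at d10 in WT and 52.56 to 67.6 and 215 to 289.8 in Carma3xpA/+. Smooth muscle markers rose in 4 of 5 cases in WT and 5 of 5 in Carma3xpA/+, their sum going from 288.7 to 320.1 FPKM at d6 to 1315 to 1540 at d10 in WT and from 184.4 to 232.2 to 1635 to 1739 in Carma3xpA/+. All 6 tested macrophage markers rose in both genotypes, and all 6 endothelial and all 5 erythroid markers fell. Of 8 cardiomyocyte markers 2 rose and 2 fell in WT, and 7 rose and 1 fell in Carma3xpA/+. The part of these cells in the members' rise was not tested. Over the whole WT course from d0 to d10, 5 rose (Cd36, Cpt2, Acadvl, Acadl, Hadhb) and 2 fell (Cpt1a, Acadm), with 70.8% of all genes called (42.2% higher and 28.6% lower) and an all-gene median of 0.16. The ratio of the highest to the lowest of the 8 group means was 35.4 for Cd36, where the lowest mean is 0.0716 FPKM, 16.1 for Cpt1a, 11.2 for Fabp3 and 4.59 for Acadvl, and it lay between 1.67 (Hadha) and 2.40 (Cpt2) for the other genes.

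**Figure D3:**
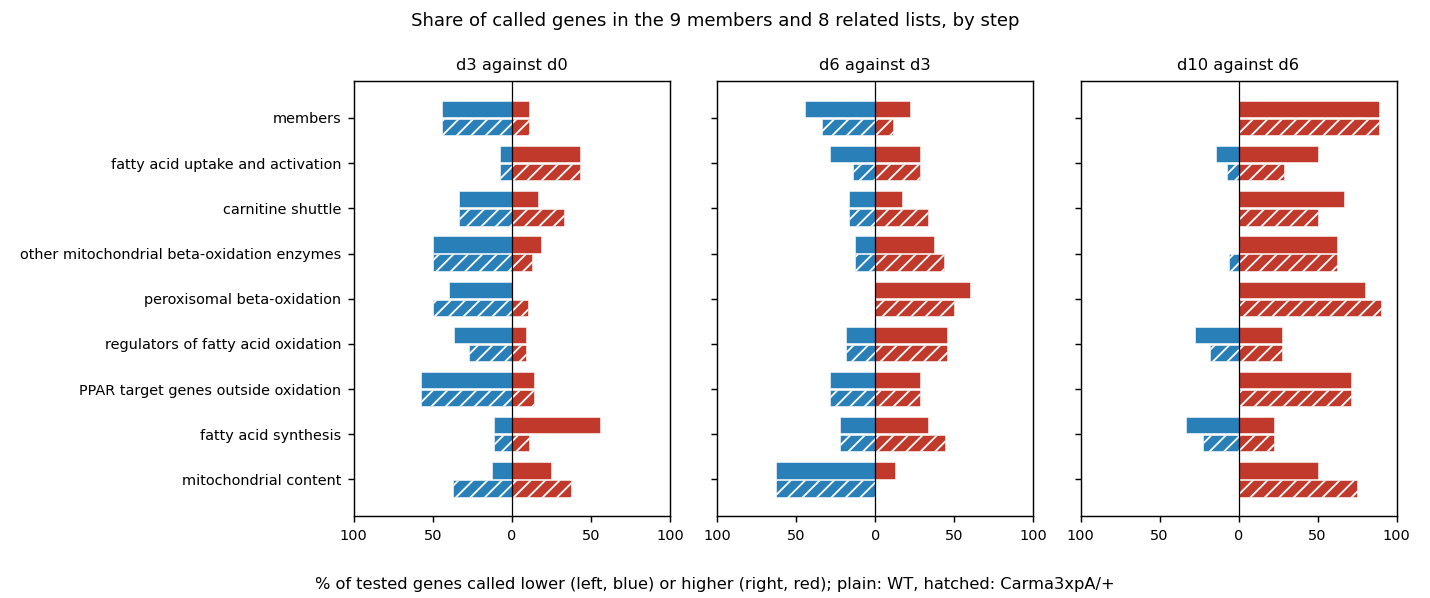
Share of tested genes called lower (blue, left) or higher (red, right) in each step, for the 9 genes (members) and 8 related lists; plain bars are WT, hatched bars Carma3xpA/+. In the d10 against d6 panel 8 of the 9 genes are called higher in both genotypes. The bars of the members and of the carnitine shuttle, peroxisomal, PPAR target and mitochondrial content lists have no blue side there.

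The rest of the pathway was described through 4 lists, of uptake and activation, the carnitine shuttle, other mitochondrial enzymes and peroxisomal oxidation, which together had 49 genes, 46 of them tested. From d6 to d10 in WT 29 rose and 2 fell, and in Carma3xpA/+ 26 rose and 2 fell. Over all genes 24.6% were called higher and 23.9% lower in WT, and 26.2% and 29.1% in Carma3xpA/+. Mitochondrial enzymes rose in 10 of 16 cases in each genotype, with 1 fall in Carma3xpA/+. In WT Acaa2, a thiolase of mitochondrial oxidation, went from 22.8 ± 1.37 to 58.4 ± 3.15 FPKM (SD, n = 3; 1.32, adjusted p = 5.863e-07), and the enoyl-CoA isomerase gene Eci1 from 13.9 ± 0.093 to 29.5 ± 1.16 (1.03, adjusted p = 1.596e-06). Etfb, a subunit of the electron acceptor of these dehydrogenases, went from 40.7 ± 2.99 to 67.9 ± 4.52 (0.73, adjusted p = 0.004348). Slc25a20, the carnitine carrier of the inner membrane, had 8.80 ± 0.19 FPKM in WT at d0, 3.55 ± 0.084 at d3, 3.67 ± 0.15 at d6 and 7.27 ± 0.28 at d10; its first and last steps passed (adjusted p = 1.737e-08 and 1.308e-06). Of the 6 shuttle genes 4 rose in WT and 3 in Carma3xpA/+ from d6 to d10.

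Peroxisomal genes rose in 8 of 10 cases in WT and 9 of 10 in Carma3xpA/+ over this interval, Ehhadh, the peroxisomal bifunctional enzyme, from 0.834 ± 0.067 to 2.65 ± 0.25 FPKM in WT (0.99, adjusted p = 4.275e-05). Genes of this list also rose earlier, in 6 of 10 cases from d3 to d6 in WT and 5 of 10 in Carma3xpA/+. In that step 35.4% and 37.8% of all genes were called higher. Uptake and activation genes were mixed: from d6 to d10 7 of 14 rose and 2 fell in WT, and 4 rose and 1 fell in Carma3xpA/+. Other binding protein genes took part, Fabp7, the brain form, going from 1.79 ± 0.44 to 24.6 ± 4.00 in WT (3.20, adjusted p = 4.082e-10) and Fabp5, the epidermal form, rising from d0 to d3 from 11.4 ± 1.52 to 26.6 ± 1.34 (1.16, adjusted p = 3.345e-09). In WT neural markers summed to 8.564 to 10.45 FPKM at d6 and 33.65 to 45.61 at d10, and their part in the Fabp7 rise was not tested. Lpl, the lipase that frees fatty acids from lipoproteins, rose from 1.17 ± 0.085 at d3 to 3.49 ± 0.78 at d6 (1.04, adjusted p = 8.498e-06).

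Genes outside oxidation were counted too. From d6 to d10 24.6% of all genes were called higher and 23.9% lower in WT, and 26.2% and 29.1% in Carma3xpA/+. From d0 to d3 the shares were 27.7% and 27.7% in WT and 27.5% and 24.9% in Carma3xpA/+. Of 7 PPAR target genes tested 4 fell and 1 rose from d0 to d3 (in Carma3xpA/+ also without the d0 library that stood apart), and 5 rose and none fell from d6 to d10, in each genotype; Pdk4, a brake on pyruvate use, was 3.27 ± 0.87 FPKM in WT at d0, 0.340 ± 0.027 at d3, 0.544 ± 0.20 at d6 and 1.42 ± 0.16 at d10. Of 11 regulators 3 rose and 3 fell in WT from d6 to d10, and 3 rose and 2 fell in Carma3xpA/+, near the all-gene shares. Ppargc1a, a coactivator of mitochondrial genes, went from 0.246 ± 0.048 to 1.00 ± 0.16 FPKM in WT (0.68, adjusted p = 8.837e-07), while Ppard fell from 4.41 ± 0.67 to 2.29 ± 0.25 (-0.71, adjusted p = 0.0008535). Esrrb, an orphan receptor of the pluripotent state, fell from 15.5 ± 1.66 at d0 to 1.68 ± 0.15 at d3 (-2.62, adjusted p = 3.051e-10). Ppara was not analysed here. Of 8 genes of mitochondrial content 4 rose and none fell from d6 to d10 in WT, and 6 rose and none fell in Carma3xpA/+, the WT median log2 difference being 0.26. Of 9 fatty acid synthesis genes 2 rose and 3 fell in WT and 2 rose and 2 fell in Carma3xpA/+, again near the all-gene shares. Fasn, the synthase itself, had risen from 12.1 ± 1.68 to 32.4 ± 1.23 between d0 and d3 in WT (1.35, adjusted p = 3.941e-07).

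Between genotypes Acadvl was higher in Carma3xpA/+ on all 4 days, and the WT and Carma3xpA/+ libraries given above overlapped on none. The ratio of means was 1.54 at d0 (0.57 ± 0.12, adjusted p = 0.002689), 1.91 at d3 (0.84 ± 0.12, adjusted p = 0.0001196), 1.54 at d6 (0.57 ± 0.12, adjusted p = 0.003664) and 1.35 at d10 (0.42 ± 0.12, adjusted p = 0.02507). Without the d0 library that stood apart the d0 difference was 0.74 (adjusted p = 1.534e-05). The change of the difference between days did not pass in any interval (adjusted p from 0.3717 to 0.7044). With the compared groups alone the d0 and d10 calls were lost (adjusted p = 0.1797 and 0.07967), and the d10 call was also lost without Carma3xpA/+ d10 replicate 2 or 3 or WT d10 replicate 1 or 2 (adjusted p from 0.05801 to 0.1203).

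**Figure D4:**
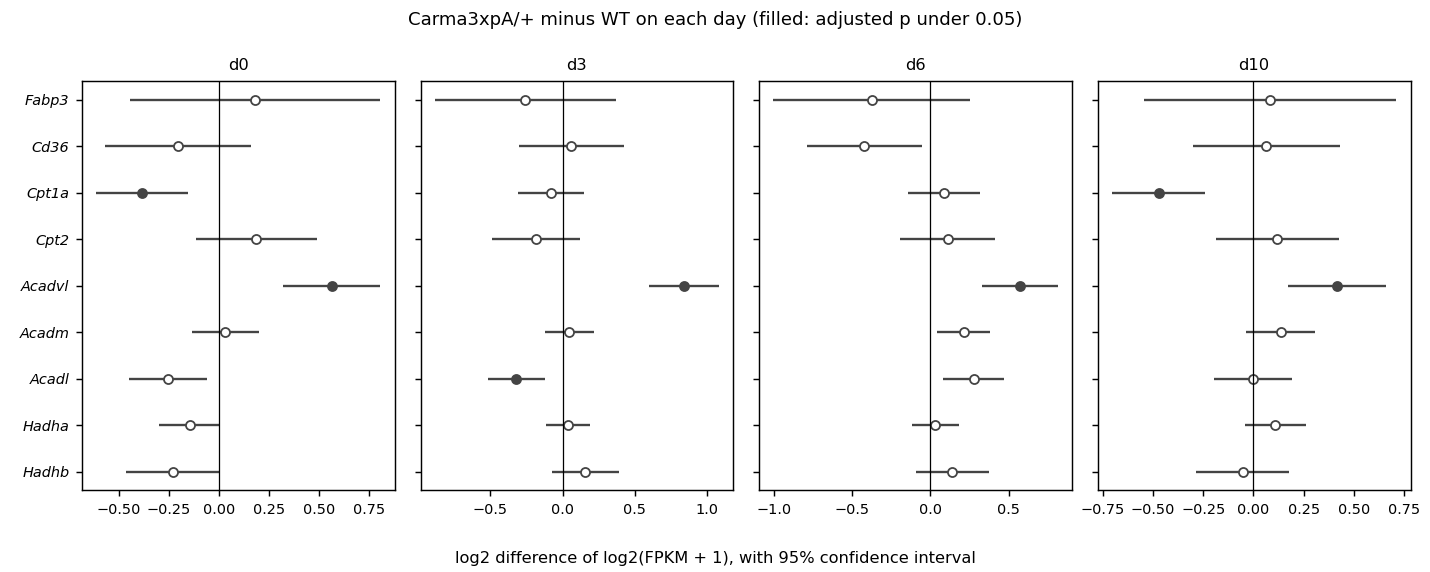
Log2 difference of log2(FPKM + 1), Carma3xpA/+ minus WT, for each gene on each day with its 95% confidence interval; filled points had an adjusted p under 0.05. Acadvl is the gene filled on the right in all 4 panels; Cpt1a is filled on the left at d0 and d10 and Acadl at d3.

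Acadvl lies on chromosome 11 (11, 70010183 to 70015411 in the deposited table, build mm10, minus strand), and the genes of that chromosome as a group were higher in Carma3xpA/+. Over 1085 tested genes there the median genotype difference was 0.13 at d0, 0.28 at d3, 0.26 at d6 and 0.22 at d10, while over all 13373 genes it was -0.03, -0.01, 0.00 and -0.03. On chromosome 11, 241, 243, 224 and 249 genes were called higher on these days and 21, 1, 19 and 24 lower. The d0 median was 0.25 when the library that stood apart was left out, against 0.02 over all genes tested, with 360 genes of chromosome 11 called higher and 11 lower, and Acadvl at rank 63 of 1080. Acadvl stood above the chromosome's median on each day, at rank 105, 21, 88 and 230 from the highest of the 1085. Within 500 kb of it 48 other genes were tested, of which 10, 10, 10 and 14 were called higher and 2, 0, 0 and 0 lower, with medians of 0.12, 0.23, 0.14 and 0.22 (at d0 without that library, 11 higher, 1 lower and a median of 0.17). The part of the chromosome-wide shift in the Acadvl difference was not tested. The other members lie on chromosomes 1, 3, 4, 5 and 19, whose median differences were between -0.07 and 0.00 on every day, and between -0.02 and 0.02 at d0 without that library.

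**Figure D5:**
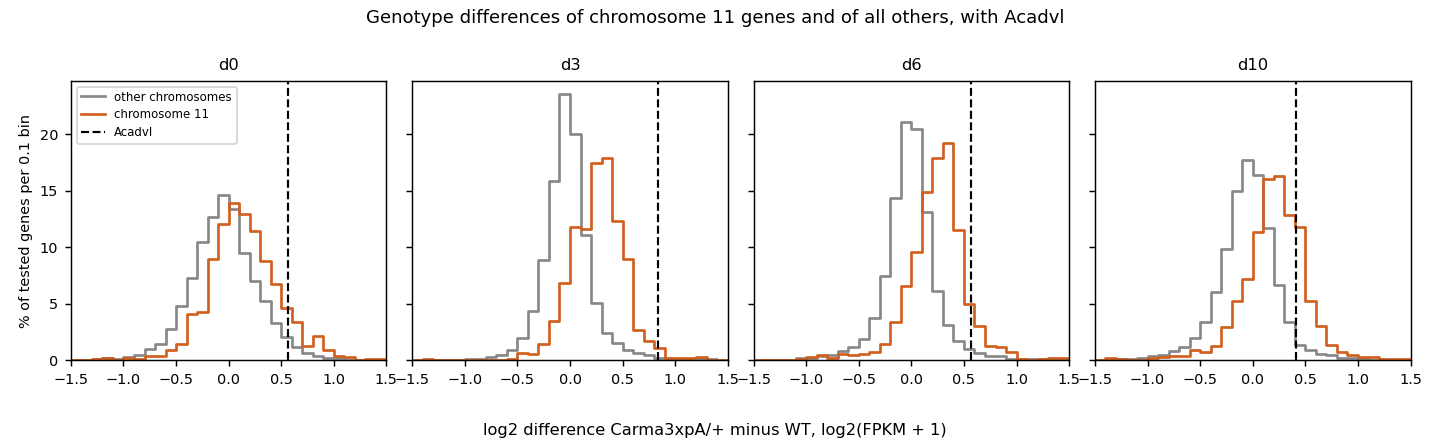
Distribution of the genotype difference (Carma3xpA/+ minus WT, log2(FPKM + 1)) over genes of chromosome 11 (orange) and of the other chromosomes (grey), as % of tested genes per bin, on each day; the dashed line is Acadvl. The chromosome 11 curve lies to the right of the other on each day, with medians of 0.13, 0.28, 0.26 and 0.22, and Acadvl lies on its right flank.

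Related genes on chromosome 11 were also on the higher side. Counting Acadvl and the 8 lists, 9 tested genes lie there, Slc22a5, Fasn and Vdac1 among them, a set drawn up after their values were seen. Their genotype difference was above 0 for 8, 8, 9 and 9 of them at d0, d3, d6 and d10, with medians of 0.38, 0.29, 0.27 and 0.24. The 81 tested genes of the members and lists on other chromosomes were above 0 in 41, 38, 55 and 50 cases, with medians of 0.00, 0.00, 0.09 and 0.04. At d0 and with the library that stood apart left out, 8 of the 9 (median 0.47) and 44 of the 81 (median 0.05) were above 0. Vdac1, the outer membrane channel, was higher at d0, d3 and d10 (0.37, 0.51 and 0.32; adjusted p = 0.01359, 0.002401 and 0.03656), and its d0 value without that library was 0.44 (adjusted p = 0.003891).

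The neighbour Dvl2 overlaps the 3' end of Acadvl on the opposite strand by 2119 bases. Its own genotype difference passed at d6 (0.46, adjusted p = 0.002782) and not at d0, d3 or d10 (0.09, 0.13 and 0.19). Listed transcripts did not settle an isoform: Acadvl-201 with 19 exons and Acadvl-202 with 20 differ by a 66-base exon (chr11:70014793-70014858) and by the lengths of their first and last exons, and Acadvl-201 was listed at 0 in 5 libraries of 5 groups while the other replicates of those groups were not. In WT at d0, where neither transcript was at 0, Acadvl-201 had 7.31 ± 1.15 FPKM and Acadvl-202 7.02 ± 0.54.

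Cpt1a differed the other way. It was lower in Carma3xpA/+ at d0 (mean 10.4 ± 1.18 against 13.9 ± 1.17 FPKM, SD, n = 3; -0.38 ± 0.11, adjusted p = 0.02057) and at d10 (7.08 ± 0.99 against 10.2 ± 0.83; -0.47 ± 0.11, adjusted p = 0.007473), with no overlap of the libraries on either day. At d3 and d6 the libraries overlapped and the test did not pass (-0.08 and 0.09, adjusted p = 0.8242 and 0.7656). The d0 call held without the library that stood apart (-0.43, adjusted p = 0.01543) but not without Carma3xpA/+ d0 replicate 3 or WT d0 replicate 1 or 3 (adjusted p from 0.05845 to 0.08449), nor with the compared groups alone (adjusted p = 0.2073). At d0 the smooth muscle sum was 48.12 to 102.9 FPKM in Carma3xpA/+ against 116.5 to 129.4 in WT, while the fibroblast sums overlapped. The part of such cells in the d0 Cpt1a difference was not tested. The d10 call was lost only in the fit of the compared groups alone (adjusted p = 0.07078). At d10 the cardiomyocyte sum was higher and the macrophage and fibroblast sums lower in Carma3xpA/+ (fibroblast markers 215 to 289.8 FPKM against 471 to 628.2), and the part of this in the Cpt1a difference was not tested. Of the 6 genes of the carnitine shuttle list none was called lower on any day, and 2 were higher in Carma3xpA/+ at d3, the carnitine transporter gene Slc22a5 (4.67 ± 0.63 against 3.02 ± 0.31 FPKM; 0.50, adjusted p = 0.04605) and Slc25a20 (5.07 ± 0.65 against 3.55 ± 0.084; 0.41, adjusted p = 0.01516). Over all genes 4.54% were called higher and 1.93% lower at d3. When the d0 library that stood apart was left out, Slc22a5 was higher at d0 too (0.39, adjusted p = 0.04003), and Cpt1c, the brain form of the transferase, was lower (-0.51, adjusted p = 0.006896). Fabp7 was lower as well at d10 (10.9 ± 5.44 against 24.6 ± 4.00 FPKM; -1.20, adjusted p = 0.001217). On that day neural markers summed to 18.77 to 35.34 FPKM in Carma3xpA/+ and 33.65 to 45.61 in WT. Their part in the Fabp7 difference was not tested.

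Acadl was lower in Carma3xpA/+ at d3 (22.0 ± 1.99 against 27.6 ± 2.16 FPKM; -0.32 ± 0.093, adjusted p = 0.04333), a call that was lost when any of 5 of the 6 libraries was left out (all but WT d3 replicate 2; adjusted p from 0.05203 to 0.2416) and with the replicate number as a block (adjusted p = 0.0615). At d6 the sign was the other and the libraries did not overlap (21.7 ± 0.77 against 17.7 ± 1.32 FPKM). This difference of 0.28 ± 0.093 missed the threshold in the main fit (adjusted p = 0.07733). It passed with the library that stood apart kept out of the shared spread, quantile normalization or quality weights (adjusted p = 0.02388, 0.04334 and 0.01587). At d0 the libraries did not overlap either (-0.25 ± 0.093, adjusted p = 0.06242). That difference passed under quantile normalization, quality weights or without Carma3xpA/+ d0 replicate 2 (adjusted p = 0.02171, 0.01381 and 0.01571). Without the library that stood apart it was -0.16 (adjusted p = 0.2561). Counting all 9 genes, 1 was higher and 1 lower at d0, where 18.8% of all genes were called (9.53% higher and 9.29% lower; without the library that stood apart 1 and 2, beside 10.7% and 6.25%). The counts were 1 and 1 at d3 (6.47% of all genes; 4.54% higher and 1.93% lower), 1 and 0 at d6 (7.78%; 4.30% and 3.48%) and 1 and 1 at d10 (10.9%; 4.95% and 5.91%). Cpt2, Acadm, Hadha and Hadhb passed on no day, although without the library that stood apart Hadha was lower at d0 (-0.22, adjusted p = 0.02536). At d10 their 95% intervals were -0.19 to 0.43 for Cpt2, -0.04 to 0.30 for Acadm, -0.04 to 0.26 for Hadha and -0.29 to 0.18 for Hadhb.

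The change of the genotype difference over an interval was tested directly. From d3 to d6 it passed for Acadl (0.60 ± 0.13, adjusted p = 0.01513), 1 of 9 members beside 2.66% of all genes (0.785% higher and 1.88% lower), and it was lost without Carma3xpA/+ d3 replicate 1 (0.53, adjusted p = 0.05869). From d6 to d10 it passed for Cpt1a (-0.56 ± 0.16, adjusted p = 0.04659), beside 4.22% of all genes (1.51% higher and 2.71% lower), but leaving out any of 10 of the 12 libraries lost it (adjusted p from 0.05574 to 0.1202); it held without Carma3xpA/+ d10 replicate 1 or 3. From d0 to d3 it passed for none of the 9 in limma, beside 3.63% of all genes (2.07% higher and 1.56% lower); 1 of them, Hadhb, had an unadjusted p under 0.05 (0.02258; 0.39 ± 0.16, adjusted p = 0.1711).

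For 4 members the genes of most similar profile over the 24 libraries were looked up among those with a group mean of at least 5 FPKM, by the root mean square difference of mean-centred log2(FPKM + 1). For Fabp3, whose own SD was 1.37, they were Timp1 (0.476), Lgals3 (0.480) and Ephx1 (0.489) of 9071 genes. Cpt1a (SD 1.08) was nearest to Nefm (0.447), Sfn (0.452) and Ass1 (0.461), and Cd36 (SD 0.715) to Akr1e1 (0.232), Trim68 (0.233) and Maged1 (0.236). Hadha varied least (SD 0.246) and was nearest to Tmem19 (0.120) and Dera (0.124), while its partner Hadhb stood at rank 471 (0.256). No member was among the nearest genes named here.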

How the data were processed

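Polyadenylated RNA of 24 libraries was sequenced with a strand-keeping kit, per the labels' protocols. The authors deposited FPKM per gene and transcript, made with HISAT2 and StringTie on build mm10 after FastQC and cutadapt, per the submitters' processing notes; versions, annotation and strand setting were not stated there. Depth is unknown: steps worth 1 read were sought, but the commonest ratio between libraries fitted 6 of 595 low genes, so no count test was run. The tests covered the 13373 genes reaching 1 FPKM in 3 or more libraries, with limma 3.58.1 (R 4.3.3) on log2(FPKM + 1), 1 mean per group, a mean-variance trend, 16 residual degrees of freedom and 14 contrasts; a call needed a Benjamini-Hochberg adjusted p under 0.05. The procedure was also run on simulated data with independent normal noise and 1 SD per gene. That setting has no library standing apart and no unequal spread between groups, so it cannot show how calls behave under these. Fold is the ratio of mean FPKM. The members and lists were chosen with earlier results of these data known. Named were the 9 members, up to 3 called genes per list and contrast by size of log2 difference, and the 3 nearest profiles of 4 members; Cpt1b at d10, Cpt1c, Pdk4 and Slc25a20 over all days, the chromosome 11 genes and overlapping genes were named after their values were seen. Some results that these rules select are not reported here. Replicate numbers recur across groups without a pairing. Alternatives changed the pseudocount, filter, scaling, samples in the fit, weights, block, gene value and libraries left out.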

Additional observations from a re-analysis of the deposited data

Results flagged for a closer look

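Among the 9 members and the 8 related lists, the change of the genotype difference between days is given here for 6 genes. Among the members, the log2 difference of Acadl went from -0.32 at d3 to 0.28 at d6 (change of the log2 difference, 0.60). The d6 value by itself did not pass in the main limma fit (adjusted p = 0.07733) but passed in some alternatives. The difference of Cpt1a went from 0.09 at d6 to -0.47 at d10 (change, -0.56). In the related lists the change from d0 to d3 was -0.97 for Fabp5, which was higher in Carma3xpA/+ at d0 (16.7 ± 1.83 against 11.4 ± 1.52 FPKM, SD, n = 3) and lower at d3 (19.2 ± 1.40 against 26.6 ± 1.34). Over the same interval it was -1.12 for the stearoyl-CoA desaturase gene Scd1 and -0.52 for the cytochrome c gene Cycs. From d6 to d10 it was -1.39 for Fabp7, and the part of neural cells in that change was not tested. All 6 passed the limma test of the difference itself (adjusted p = 0.01513 for Acadl, 0.04659 for Cpt1a, 0.0003977 for Fabp5, 0.04101 for Scd1, 0.04711 for Cycs and 0.01329 for Fabp7). The Acadl call was lost without Carma3xpA/+ d3 replicate 1 (adjusted p = 0.05869). The Cpt1a call was lost with the compared groups alone (adjusted p = 0.07384) and without most single libraries (adjusted p up to 0.1202). Without the d0 library that stood apart the changes from d0 to d3 were -1.04 for Fabp5 (adjusted p = 1.875e-05) and -1.44 for Scd1 (adjusted p = 0.0006632), while the call of Cycs was lost (-0.43, adjusted p = 0.05912). In that setting 8 genes of the lists passed for this interval in place of 3, beside 7.43% of all genes in place of 3.63%.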

How the results depend on the processing

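Of 52 member differences that passed the test, 38 passed under every alternative, 14 were lost under at least 1 and none changed sign; 17 that had not passed changed sign under some setting. Counts of members called moved by more than 1.5 times as follows. With the compared groups alone they were 0 between genotypes at d0, 0 at d10, 2 for Carma3xpA/+ d3 against d0 and 0 for the change from d6 to d10. Quality weights, whose estimation stopped before it converged, gave 5 at d0, 3 at d6, 7 at d10, 7 for Carma3xpA/+ d6 against d3, and 3 and 2 for the changes from d0 to d3 and d6 to d10. Summed transcripts gave 1 at d3, 1 at d10 and 0 for the change from d6 to d10, for which a filter at 5 FPKM, median-of-ratios scaling and a pseudocount of 0.1 also gave 0. At d6 quantile normalization gave 2, and 3 were called with the library that stood apart kept out of the shared spread. The replicate block gave 1 at d3 and 0 for the change from d6 to d10 and ended no other call; of 33 same-numbered pairs 11 correlated best with their own number (r from -0.169 to 0.24), so the numbers are no pairing. Leaving out 1 library gave 1 to 3 between genotypes at d0, 1 to 2 at d3, d6 and d10, 0 to 1 for the changes from d3 to d6 and from d6 to d10, 6 to 8 for Carma3xpA/+ d10 against d6, 7 to 8 for WT d10 against d6 and against d0, 5 to 6 for Carma3xpA/+ d3 against d0, and no change in the other counts. The cause of these shifts was not tested.

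Signs changed in these differences, none of which had passed. Median-of-ratios scaling gave 0.018 for Acadl between genotypes at d10 and -0.010 for Acadvl in Carma3xpA/+ d6 against d3. Quality weights gave 0.123 for Acadl at d10, 0.008 for Cpt2 in WT d6 against d3, -0.028 for Fabp3 at d0 and 0.011 for Hadhb at d10. Quantile normalization gave 0.061 for Cd36 and 0.010 for Hadhb in WT d3 against d0, -0.134 and -0.122 for Fabp3 at d0 and d10, and -0.014 for Hadha at d6. Summed transcripts gave for Cd36 0.000, -0.009 and 0.051 at d0, d3 and d6, 0.100 in WT d10 against d6 and 0.019 in WT d3 against d0, and 0.051 for Hadhb in that step. With single libraries left out, values between genotypes ran from -0.067 to 0.059 for Acadl, -0.129 to 0.264 for Cd36, -0.036 to 0.291 for Cpt2, -0.298 to 0.547 for Fabp3 and -0.092 to 0.009 for Hadhb at d10, from -0.018 to 0.110 for Acadm and -0.146 to 0.381 for Fabp3 at d0, and from -0.048 to 0.133 for Cd36 at d3. In Carma3xpA/+ d6 against d3 they ran from -0.086 to 0.034 for Acadl, in WT d6 against d3 from -0.117 to 0.051 for Cpt2, and in WT d3 against d0 from -0.064 to 0.095 for Hadhb.

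With 3 libraries a group and no counts, small differences of low genes such as Cd36 could not be resolved, and no counting error can be given. The all-gene median moved between scalings by over 0.1, from 0.157 as deposited to -0.016 under quantile normalization in WT d10 against d0 and from 0.109 to -0.062 in Carma3xpA/+ d6 against d3, so member differences of that size there depend on the scaling. The deposited gene values of Hadhb, Acadm, Hadha, Acadvl and Acadl were below the sum of their listed transcripts (median ratios 0.319, 0.540, 0.594, 0.829 and 0.956), and with that sum the d10 genotype call of Acadvl was lost (0.39, adjusted p = 0.1003). Cd36 has no such ratio, because its 3 listed transcripts were at 0 in every d0 library. The gene itself had 0.1817 to 0.2812 FPKM in WT at d0. Its mean was below that of the transcript Cd36-206 alone in WT at d10 (1.89 against 2.161) and in Carma3xpA/+ at d6 (1.626 against 1.685).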
